A study of Mus musculus with 16 samples.

Results

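The annotated mouse miRs mmu-miR-714, mmu-miR-712*, mmu-miR-762, mmu-miR-682, mmu-miR-1224, mmu-miR-483, mmu-miR-574-5p, mmu-miR-188-5p and mmu-miR-290-5p were bright in megakaryocyte-erythroid progenitors (MEP) and are described here without the species prefix. They were picked by name, for high signal in MEP and on the dim long-term hematopoietic stem cell (LT-HSC) array, so their level in those populations is a description and was given no test. The array carried 577 miRs on 1712 non-control probes, and these 9 miRs had 34 of the probes. Each of the 16 one-colour Agilent arrays was hybridised with RNA from 1 sorted population of untreated bone marrow of female C57Bl/6 mice aged 6 to 8 weeks. LT-HSC had 1 array. MEP had 3, as did short-term HSC (ST-HSC), the multipotent progenitors below them (MPP), the common myeloid progenitor (CMP) and the granulocyte-monocyte progenitor (GMP). All populations were sorted from marrow depleted of lineage-positive cells and enriched for c-kit, and each sample pooled 10 to 20 mice, so no value belongs to a single animal.

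A miR is a short RNA that guides the silencing complex to messenger RNAs, and pairing through its seed, bases 2 to 8 from the 5′ end, sets most of its targets. Several of these miRs do not come from a classical miR gene. miR-712 is known to arise from the spacer of preribosomal RNA, and miR-712* is annotated as the other arm of its hairpin. miR-1224 is a mirtron, a hairpin formed by a whole short intron that is released by splicing. miR-483 sits in an intron of the growth factor gene Igf2, miR-188 belongs to an X-linked miR cluster inside the chloride channel gene Clcn5, and miR-290 opens the cluster best known from embryonic stem cells. In the erythroid lineage the established miRs are miR-144, miR-451 and miR-486.

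The mature sequences of 7 of the 9 miRs were matched in the RefSeq table of GRCm38.p6 and are shown because the seeds tell whether the group shares targets. The seed stands in capitals, and sequences run 5′ to 3′. The RefSeq names were miR-1224-5p for miR-1224, miR-483-5p for miR-483 and miR-290a-5p for miR-290-5p.
miR-762: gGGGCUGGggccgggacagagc
miR-682: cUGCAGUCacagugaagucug
miR-1224: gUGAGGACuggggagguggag
miR-483: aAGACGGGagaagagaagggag
miR-574-5p: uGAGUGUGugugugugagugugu
miR-188-5p: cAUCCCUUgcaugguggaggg
miR-290-5p: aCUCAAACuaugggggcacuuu

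The 7 seeds were all different, so the group is not a seed family. Guanine made up 61.9% of miR-1224, 59.1% of miR-762, 50% of miR-483, 47.8% of miR-574-5p, 38.1% of miR-188-5p, 28.6% of miR-682 and 22.7% of miR-290-5p. A comparison of base content with other miRs is void, because only 142 of the 567 mouse miRs on the array, and 7 of these 9, had a matched sequence. The loci were spread over several chromosomes. miR-1224 lay at chr16:20604452-20604472 on the plus strand, within the coordinates of the protein-coding gene Vwa5b2. miR-762 lay at chr7:127708534-127708555 on the plus strand, within Bcl7c. miR-483 lay at chr7:142654968-142654989 on the minus strand, within Igf2. miR-188-5p lay at chrX:7248031-7248051 on the minus strand, within Clcn5. miR-574-5p lay at chr5:64970328-64970350 on the plus strand, where the spans of Fam114a1 and Tlr6 overlap. miR-682 lay at chr13:75645119-75645139 on the plus strand, inside the pseudogene Gm4149. miR-290-5p lay at chr7:3218639-3218660 on the plus strand, and no other annotated gene spanned its hairpin. miR-714 and miR-712* are named only.

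Arrays differed in brightness by slide. The first slide carried the CMP, GMP and MEP arrays numbered 1 and 2. Those numbered 3 were on slide 2 together with LT-HSC and ST-HSC 1, and slide 3 took ST-HSC 2 and 3 and all MPP arrays. The array total, the sum of background-subtracted signal over all non-control probes, was 164053 to 335064 units for slide 1. It was 34810 to 113362 units for slide 2 and 125672 to 163703 for slide 3. Negative control probes had a 95th percentile of 9.94 to 44.3 units on slide 1 and at most 3.35 on the other slides, and no spot was saturated. Markers of MEP and GMP followed the labels. Signal of miR-144, miR-451 and miR-486 was highest on the 3 MEP arrays, and miR-223, a miR of the granulocyte-monocyte lineage, was highest on the GMP arrays of each slide that held GMP. Of the miRs known from HSC subsets, miR-125a-5p, miR-125b-5p, miR-99a and let-7e had their lowest normalized mean in MEP or, for miR-125a-5p, in MEP and GMP. On LT-HSC miR-99a and let-7e, at normalized log2 levels of 8.47 and 5.73, lay below ST-HSC, at 8.78 and 6.55, and MPP, at 9.16 and 7.46. In contrast, miR-125b-5p and miR-125a-5p, at 9.55 and 5.41 on LT-HSC, lay above ST-HSC, at 9.02 and 5.08. Both were nearly level with MPP, at 9.54 and 5.47.

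All 9 miRs were brighter in MEP than in CMP and GMP, and the data for each are the signal in units, before normalization between arrays, of the brightest of its passing probes. miR-1224 read 44975, 34041 and 10201 units on MEP 1, 2 and 3 and 3059 on LT-HSC. Over the 12 arrays of ST-HSC, MPP, CMP and GMP its lowest, median and highest signal was 1879, 5932 and 10304 units. MEP 3 thus fell just under the brightest other array, ST-HSC 2, while MEP 1 and MEP 2 stood clear of all 12. miR-714 read 1385, 1067 and 3232 units in MEP, 258 on LT-HSC, and 106, 275 and 544 units at the lowest, median and highest of the 12. Its brightest MEP array was MEP 3, the dimmest of the 3 MEP arrays by total. miR-712* was also brightest on MEP 3, with 133, 173 and 262 units on MEP 1, 2 and 3, against 8.45 on LT-HSC and 11.3, 29.0 and 43.7 units over the 12.

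The other miRs except miR-682 were brighter on both slide 1 arrays of MEP than on MEP 3. miR-574-5p read 1080, 672 and 340.1 units in MEP, 87.3 on LT-HSC, and 45.7, 191 and 307 units at the lowest, median and highest of the 12. miR-483 read 317, 287 and 101 units in MEP, 36.0 on LT-HSC, and 21.1, 66.3 and 101 units over the 12. For miR-483 the MEP 3 value was level with CMP 1, so the groups overlapped. miR-762 read 309, 193 and 97.8 units in MEP, 34.7 on LT-HSC, and 10.98, 21.9 and 44.2 units over the 12. miR-188-5p read 209, 220.2 and 85.6 units in MEP, 32.7 on LT-HSC, and 16.2, 59.5 and 118 units over the 12. MEP 3 lay below ST-HSC 2 for miR-188-5p. miR-290-5p had the lowest mean signal of the 8 miRs detected outside MEP, with 55.4, 49.1 and 23.7 units in MEP, 15.4 on LT-HSC, and 9.29, 21.1 and 30.3 units over the 12. miR-682 read 39.5, 20.9 and 23.9 units in MEP and no more than 6.42 units on any other array. The scanning software called at least 0.5 of its spots well above background on the 3 MEP arrays and on 0 of the others, so it entered the tests through MEP alone.

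**Figure D1:**
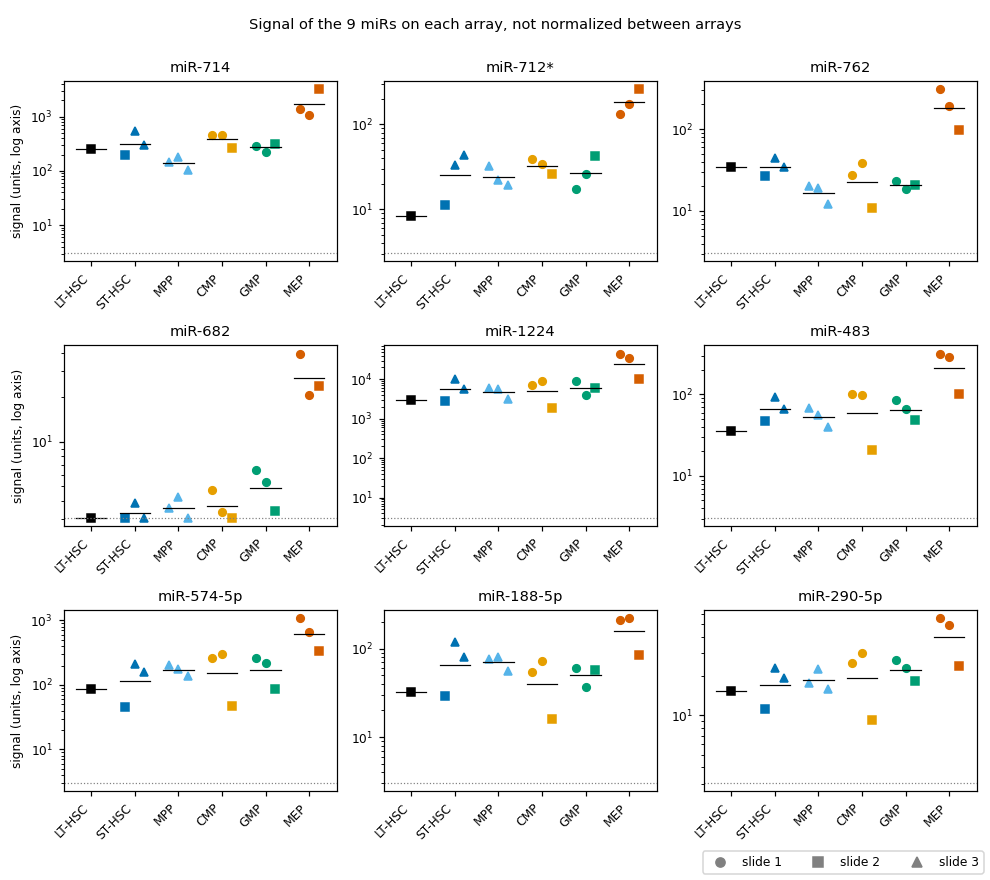
Signal of the representative probe of each miR on each array, on a log axis in units before normalization between arrays. Points are arrays, shaped by slide, bars are geometric means of a population, and the dotted line is the floor of 3.07 units at which lower values are drawn. The 3 MEP arrays stood above all 12 arrays of ST-HSC, MPP, CMP and GMP for 5 of the 9 miRs.

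On this unnormalized scale, every MEP array stood above every other array for 5 of the 9 miRs, miR-714, miR-712*, miR-762, miR-682 and miR-574-5p. Among all 237 miRs tested the same held for 9.7%. After normalization it held for 7 of the 9, all but miR-714 and miR-290-5p, and for 11% of all. Since slides differed in brightness, arrays were also compared within a slide. Every MEP array stood above all other arrays of its own slide for 9 of the 9 miRs, and for 17.3% of all miRs tested. The rule chose these miRs for that height, so nothing is read from either count. Relative to the mean of CMP and GMP on slide 1, MEP signal was higher by 9.40-fold for miR-762, 5.56-fold for miR-1224, 3.57-fold for miR-714 and 2.00-fold for miR-290-5p. On slide 2 the same ratios were 6.49-fold for miR-762, 3.03-fold for miR-1224, 11.1-fold for miR-714 and 1.82-fold for miR-290-5p. For miR-714 the ratio therefore differed most between the slides, with MEP 3 giving the larger one.

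The height in MEP did not go with a brighter array. The mean total of the MEP arrays was 0.678 of that of CMP and GMP on slide 1 and 0.998 of it on slide 2. With the 34 probes left out of the total, these ratios were 0.44 and 0.775. The 34 probes held 37.6%, 39.3% and 29.8% of the total on MEP 1, 2 and 3, 21.1% on LT-HSC, and 2.41% to 14.95% on the other 12 arrays. Most of this was miR-1224, whose 4 probes alone held 34.5%, 35.9% and 20.3% of the total in MEP and 18.0% on LT-HSC. The other 8 miRs together held 3.14%, 3.43% and 9.47% in MEP, and the brightest probe of miR-714 alone held 3.61% of MEP 3.

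**Figure D2:**
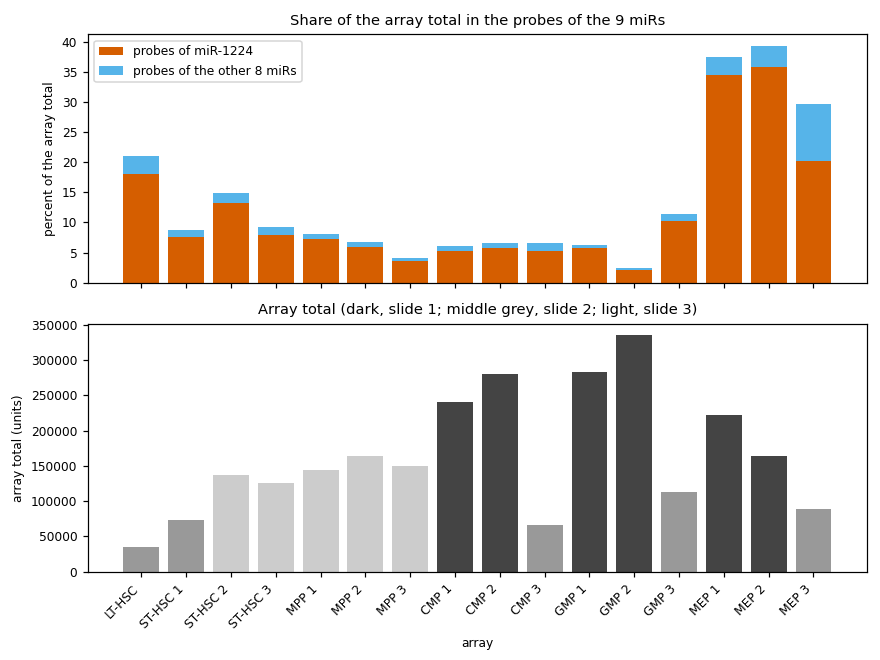
Upper panel, percent of each array's total signal in the probes of miR-1224 and of the other 8 miRs. Lower panel, the array total in units, shaded by slide. The MEP arrays gave 29.8% to 39.3% and the LT-HSC array 21.1%, while the MEP totals, 89579 to 221677 units, lay within the range of the other populations.

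After quantile normalization, which gives all arrays the same distribution of values, the differences between MEP and the mean of CMP and GMP ran from 1.07 log2 units for miR-290-5p to 3.45 for miR-762. Their median was 2.85, against -0.49 over all miRs tested, and it was 2.34 with miR-682 at its bound. miR-682 was at least 1.95-fold higher in MEP, a bound because the probe was not well above background in CMP or GMP (mean of the MEP arrays against the dimmest signal called well above background on each CMP or GMP array, or the probe's own value where higher, on the normalized log2 scale). The other differences were 3.01 for miR-712*, 2.85 for miR-714 and for miR-574-5p, 2.34 for miR-483, 2.05 for miR-188-5p and 1.91 for miR-1224. Those of miR-712*, miR-762 and miR-290-5p include CMP 2, where these miRs were not well above background. miR-1224 held the top rank on all 3 MEP arrays, so its normalized value was 14.04 on each of them and its spread there was set to 0 by the normalization. Its difference is therefore compressed relative to the unnormalized one, 2.18 log2 units. Within slides the normalized median over the 9 miRs was 2.74 on slide 1 and 2.71 on slide 2.

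The order of the populations by normalized level put MEP first for 8 of the 9 miRs, with LT-HSC first for miR-290-5p. All values that follow are normalized log2 levels as mean ± SD over 3 arrays, with 1 array for LT-HSC. miR-714 was at 10.98 ± 0.81 in MEP, 10.89 on LT-HSC, 8.90 ± 0.41 in ST-HSC, 8.44 ± 0.85 in CMP, 7.83 ± 1.05 in GMP and 7.24 ± 0.42 in MPP. LT-HSC lay within the MEP spread for miR-714. miR-712* was at 7.93 ± 1.35 in MEP, 5.16 ± 0.66 in CMP, 4.83 ± 0.53 in ST-HSC, 4.68 ± 1.12 in GMP, 4.47 on LT-HSC and 4.41 ± 0.40 in MPP, so its LT-HSC level lay below that of ST-HSC. miR-762 was at 7.91 ± 0.26 in MEP, 7.08 on LT-HSC, 5.32 ± 0.28 in ST-HSC, 4.61 ± 0.24 in CMP, 4.32 ± 0.58 in GMP and 3.90 ± 0.32 in MPP. For miR-714 and miR-762 the step from ST-HSC up to LT-HSC was larger than the SD of ST-HSC, and below ST-HSC only the step from ST-HSC to CMP for miR-762 exceeded the SDs of both neighbours.

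miR-1224 was at 14.04 ± 0 in MEP, 13.44 on LT-HSC, 13.19 ± 0.43 in ST-HSC, 12.58 ± 0.78 in MPP, 12.29 ± 0.18 in CMP and 11.98 ± 0.997 in GMP. miR-483 was at 8.26 ± 0.26 in MEP, 7.26 on LT-HSC, 6.31 ± 0.32 in ST-HSC, 5.92 ± 0.23 in CMP, 5.92 ± 0.19 in GMP and 5.50 ± 0.50 in MPP. CMP and GMP were level for miR-483. miR-574-5p was at 9.91 ± 0.10 in MEP, 8.95 on LT-HSC, 7.54 ± 0.33 in MPP, 7.30 ± 0.93 in ST-HSC, 7.10 ± 0.21 in GMP and 7.03 ± 0.41 in CMP. miR-188-5p was at 7.57 ± 0.27 in MEP, 7.01 on LT-HSC, 6.40 ± 0.67 in ST-HSC, 5.93 ± 0.27 in MPP, 5.64 ± 0.84 in GMP and 5.40 ± 0.12 in CMP. Among ST-HSC, MPP, CMP and GMP, each step between neighbours in these orders was smaller than the larger SD of the pair, except the step from ST-HSC to CMP for miR-483. miR-290-5p was at 5.62 on LT-HSC, 5.48 ± 0.34 in MEP, 4.47 ± 0.34 in GMP, 4.35 ± 0.13 in CMP, 4.28 ± 0.04 in ST-HSC and 4.08 ± 0.12 in MPP. miR-682 was at 4.90 ± 0.39 in MEP, and elsewhere it stayed near background.

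On the LT-HSC array the picture depended on the scale. The LT-HSC total was 0.476 of that of ST-HSC 1, its slide mate among the HSC subsets. After normalization LT-HSC stood above every ST-HSC and MPP array for 6 of the 9 miRs, against 21.1% of all miRs tested, and the median difference from the mean of ST-HSC and MPP was 1.36 log2 units, against -0.39 over all miRs tested. Without normalization LT-HSC stood above every ST-HSC and MPP array for 0 of the 9, and the median difference was -0.69, against -1.87 over all. Against ST-HSC 1 alone, the unnormalized LT-HSC signal was higher for 6 of the 9 miRs, with a median difference of 0.18, and for 18.1% of all miRs tested. As a percent of the array total it was higher for 9 of the 9, and for 42.6% of all. This count and the 6 after normalization include miR-682, which read 2.49 units on LT-HSC. It was not well above background there or on any ST-HSC or MPP array, so nothing is read from its part in these counts. miR-574-5p, with 87.3 against 45.7 units, stood furthest above ST-HSC 1, whereas miR-712*, with 8.45 against 11.3 units, and miR-483, with 36.0 against 47.9, stood below it.

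Before normalization, the erythroid markers miR-451, miR-486 and miR-144 read higher on LT-HSC than on every ST-HSC and MPP array. On that scale the same held for 0 of the 9 miRs. miR-451 read 310.3 units on LT-HSC, 143 on ST-HSC 1, 80.9 and 193 on ST-HSC 2 and 3, and 46.3 to 126 on the MPP arrays. miR-486 read 23.8 units on LT-HSC and at most 7.56 on the ST-HSC and MPP arrays, where it was not well above background. miR-144 was nearly level on LT-HSC and ST-HSC 1, at 13.0 and 12.3 units. The part of these markers in the LT-HSC levels was not tested, nor was that of the low total. With 1 LT-HSC array, none of these differences has a replicate check, and in sorted bulk samples a change in the cells present and a change in RNA per cell cannot be told apart.

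The comparisons that follow contrast neither MEP nor LT-HSC, the populations in which the miRs were picked for high signal. Their arrays still entered the detection filter and the choice of the brightest probe, and, for the differences between populations, the normalization. For those differences the MEP arrays also entered the shared estimate of the spread, where the normalization had set the SD of miR-1224 in MEP to 0. The miRs were chosen with earlier results of these data known, so full independence from the other populations is not established. The first comparison asked whether the 9 miRs differed between ST-HSC and MPP. miR-762 rose in ST-HSC relative to MPP, by 1.41 log2 units (SE 0.30, 3 arrays each), a 2.66-fold difference with a limma adjusted p = 0.0276 over 237 miRs. It read 26.4, 44.2 and 34.7 units on ST-HSC 1, 2 and 3 and 20.2, 19.0 and 12.3 on MPP 1, 2 and 3, and the groups did not overlap. This was 1 of the 9 miRs, while 4.64% of all miRs tested passed in this comparison and 1.27% passed as higher in ST-HSC. The call was lost without normalization between arrays (1.03, limma adjusted p = 0.657), with the mean of the 4 probes in place of the brightest (0.93, limma adjusted p = 0.225), and without ST-HSC 2, MPP 2 or MPP 3 (limma adjusted p of 0.0718, 0.0935 and 0.12). The call held but the difference shrank to 0.34 after normexp background correction and to 0.51 in the deposited values (limma adjusted p of 0.0464 and 0.0301).

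The remaining 8 miRs did not pass between ST-HSC and MPP. miR-714 differed by 1.66 log2 units (SE 0.56, limma adjusted p = 0.111), with 193, 544 and 300.2 units in ST-HSC and 146, 176 and 106 in MPP, and the groups did not overlap. With slide as a block its difference was 1.78 with a limma adjusted p = 0.000968, and it also passed without GMP 3 (1.66, limma adjusted p = 0.0401). miR-483 differed by 0.80 (SE 0.27, limma adjusted p = 0.111). The other 6 differences were between -0.25 and 0.61 log2 units, with limma adjusted p from 0.459 to 0.73, and the interval for the 0.61 of miR-1224 ran from -0.37 to 1.59.

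Between CMP and GMP, which share slides 1 and 2, 0 of the 9 miRs passed the limma test, and 7.59% of all miRs tested did. At an unadjusted p under 0.05, which 21.1% of all miRs reached, only miR-682 differed, and since its probe stayed near background on all 6 arrays, nothing is read from it. The differences of the other 8 miRs ran from -0.23 for miR-188-5p to 0.61 for miR-714. The narrowest interval was that of miR-290-5p, from -0.58 to 0.36, and the widest that of miR-712*, from -0.92 to 1.89. Signal of miR-712*, miR-762 and miR-290-5p was not well above background on CMP 2, so their CMP means include 1 array that did not measure them.

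Between ST-HSC and MPP on one side and CMP and GMP on the other, 0 of the 9 miRs passed, while 48.1% of all miRs tested did. At an unadjusted p under 0.05, which 55.7% of all miRs reached, miR-1224 was at 0.76 (SE 0.32, limma adjusted p = 0.0656) and miR-188-5p at 0.65 (SE 0.28, limma adjusted p = 0.0681). Both passed without ST-HSC 1 (0.88, limma adjusted p = 0.039, and 0.81, limma adjusted p = 0.0175) and without GMP 3 (0.93, limma adjusted p = 0.0268, and 0.87, limma adjusted p = 0.0104), and miR-1224 also without MPP 3 (0.94, limma adjusted p = 0.0362). miR-574-5p was at 0.36 (SE 0.27, limma adjusted p = 0.277) and passed without ST-HSC 1 (0.63, limma adjusted p = 0.00773). Slide was partly confounded with this comparison. The study sorted the HSC subsets and the myeloid progenitors in separate FACS runs, so population and sort cannot be told apart here. With slide as a block miR-714 and miR-712* passed, at -1.41 (limma adjusted p = 0.0168) and -2.08 (limma adjusted p = 0.0071), against -0.06 and -0.30 without the block.

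Whether a signal followed the array total was asked on the same 12 arrays, by the slope of unnormalized log2 signal on log2 total with population in the fit. A slope of 1 means a constant share of the total and a slope of 0 a signal that did not move with it. The slope passed the limma test for 6 of the 9 miRs, and for 80.2% of all miRs tested, whose median slope was 0.92. It was 1.31 for miR-574-5p (95% interval 0.92 to 1.71, limma adjusted p = 6.8e-05), 0.87 for miR-483 (0.48 to 1.25, limma adjusted p = 0.000959) and 0.79 for miR-1224 (0.14 to 1.43, limma adjusted p = 0.0278). It was 0.72 for miR-188-5p (0.12 to 1.33, limma adjusted p = 0.0306), 0.68 for miR-290-5p (0.40 to 0.96, limma adjusted p = 0.000652) and 0.54 for miR-762 (0.15 to 0.92, limma adjusted p = 0.0154).

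The slopes of miR-714, miR-682 and miR-712* did not pass, at 0.30 (-0.15 to 0.75, limma adjusted p = 0.191), 0.29 (0.01 to 0.56, limma adjusted p = 0.0507) and 0.15 (-0.49 to 0.80, limma adjusted p = 0.626). miR-682 was near background on all of these 12 arrays, so its slope describes background. The interval held 1 for 4 of the 9 miRs, miR-1224, miR-483, miR-574-5p and miR-188-5p, and for 59.1% of all miRs tested. For miR-714, miR-712*, miR-762 and miR-290-5p it lay below 1 in this fit, which has no term for slide. An interval below 1 means a share of the total that was larger on dim arrays. The CMP arrays show the contrast, between arrays on different slides. From CMP 3, with a total of 66237 units, to CMP 1, with 240794, miR-574-5p went from 46.8 to 263 units and miR-1224 from 1879 to 7371, whereas miR-714 went from 267 to 466 and miR-712* from 25.8 to 39.5.

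**Figure D3:**
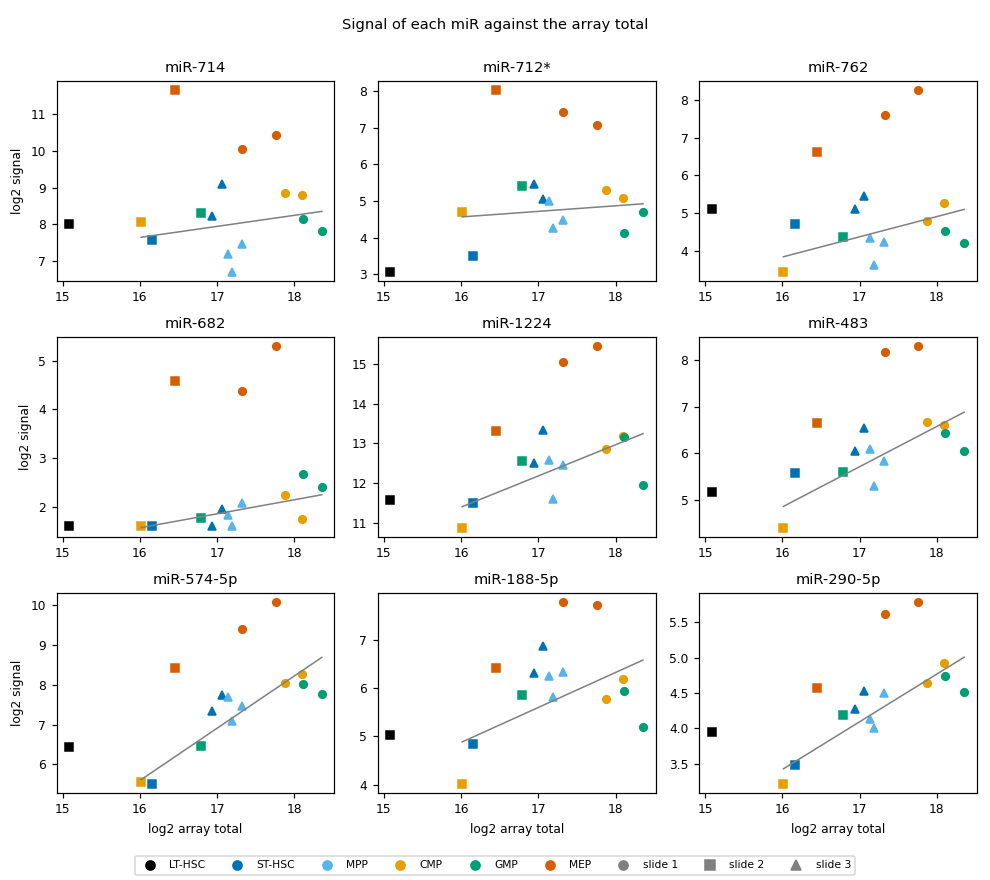
Unnormalized log2 signal of each miR against the log2 array total, coloured by population and shaped by slide. The grey line has the slope fitted over the 12 ST-HSC, MPP, CMP and GMP arrays. The MEP totals lie within the range of those 12 arrays, and the LT-HSC array has the lowest total.

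**Figure D4:**
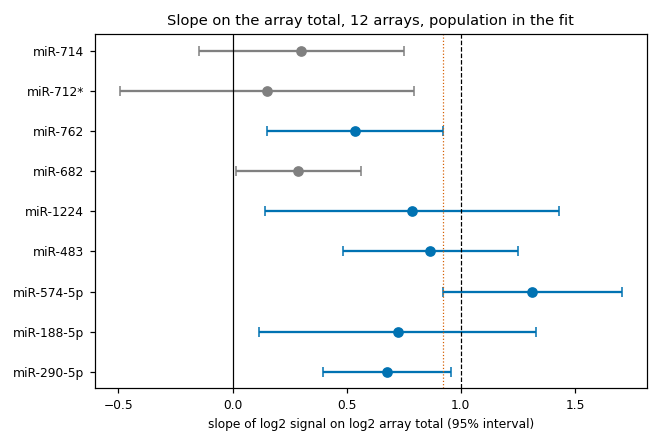
Slope of log2 signal on log2 array total with its 95% interval, 12 arrays with population in the fit. Blue points passed the limma test at an adjusted p under 0.05, the dashed line marks 1, and the dotted line marks the median over all miRs tested, 0.92. The points of miR-714, miR-682 and miR-712* lie at 0.30 or lower.

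Total and slide were nearly the same measure within a population. The CMP totals were 240794 to 279737 units on slide 1 and 66237 on slide 2, and those of GMP were 282780 to 335064 and 113362. With slide as a further term, the slope passed for 0 of the 9 miRs and for 43 of all 237. Slopes then ran from 1.26 to 2.34 for the 6 miRs that had passed, with limma adjusted p from 0.07 to 0.319. Standard errors were up to 1.47. The slopes of miR-714 and miR-712* were then 1.40 (interval -0.53 to 3.33) and 1.44 (-0.66 to 3.55), above the 1.26 of miR-574-5p. The intervals of miR-762 (-0.06 to 3.76) and miR-290-5p (0.31 to 2.70) also held 1. With slide in the fit, a larger share on dim arrays was thus not established for miR-714, miR-712*, miR-762 or miR-290-5p. The slope of miR-762 was 0.19 without CMP 3 (limma adjusted p = 0.479), and those of miR-1224 and miR-188-5p were 0.39 and 0.37 without it (limma adjusted p = 0.445 for both). Only miR-574-5p and miR-290-5p passed with any 1 of the 12 arrays left out, and without CMP 3 these were the 2 that passed. Following the total and following the slide cannot be told apart with these arrays.

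With the total in the fit, the 4 populations differed for miR-714 (limma adjusted p = 0.0198) and miR-762 (limma adjusted p = 0.0207), 2 of the 9 miRs. The same test passed for 65.4% of all miRs tested. The adjusted p of the other 7 lay between 0.119 and 0.839. With slide as a further term the values of miR-714 and miR-762 were 0.0219 and 0.0327, with the replicate block 0.0414 and 0.0638, and without a detection filter 0.0764 and 0.0741. The count was 1 without ST-HSC 2, MPP 1 or MPP 3, and 4 without GMP 3.

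Each miR had 2 or 4 probes, which share a target and are not replicates. Of the 34 probes, 30 were well above background on at least 3 arrays, and 8 of the 9 miRs had more than 1 such probe. In MEP against CMP and GMP, the passing probes of all 8 pointed the same way, and differences ranged from 2.85 to 2.98 log2 units for miR-714, from 2.05 to 2.26 for miR-188-5p and from 1.91 to 2.63 for miR-1224. For miR-1224 the brightest probe gave the smallest of these. On LT-HSC against ST-HSC and MPP the probes of all 8 again agreed in sign, but those of miR-1224 spread from 0.55 to 3.00 and those of miR-762 from 0.55 to 2.47. The rule chose the miRs for height in MEP and on LT-HSC, so nothing is read from the agreement in either comparison. Between ST-HSC and MPP, and between these and CMP and GMP, 7 of the 8 agreed in sign, and between CMP and GMP 2 of the 8 did.

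Probes of a miR differed widely in brightness for some miRs, and the dimmest probes were near background on part of the arrays. The mean signal of the brightest over that of the dimmest passing probe was 61.0 for miR-1224, 29.2 for miR-714, 4.42 for miR-762 and 3.37 for miR-712*, and between 1.12 and 1.95 for miR-483, miR-574-5p, miR-188-5p and miR-290-5p. Of the 16 arrays, the dimmest probe cleared background on 16 for miR-1224, on 7 for miR-714, on 6 for miR-762 and on 9 for miR-712*. By the coordinates the scanner files give, the miR-1224 probes cover 9 to 12 bases, and signal went up with the length on every array, from 62.9 to 3121 units on MPP 3 for example. For miR-762 the order was another one. Its probe covering 11 bases was the brightest in MEP, while the probe of 13 bases was level with it on ST-HSC 2, at 44.3 against 44.2 units, and on MPP 2, at 18.9 against 19.0. Between ST-HSC and MPP the probe of 11 bases differed by 1.41 log2 units and that of 13 bases by 0.50, and both remaining probes lay between, at 1.21 and 0.60.

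For miR-1224 and miR-714 the ratio between probes of 1 miR was lower on every slide 2 array than on the arrays of the other slides. For miR-1224 the brightest probe was 22.1 to 44.4 times the dimmest on slide 2. It was 49.6 to 65.1 times the dimmest on slide 3, and the slide 1 arrays gave 61.5 to 88.5. For miR-714, whose pair of brightest probes was well above background on every array, the ratio of these was 1.21 to 1.35 on slide 2, while slide 3 arrays gave 1.65 to 1.72 and slide 1 arrays at most 1.70 and at least 1.503. The lowest ratio of each miR was on the LT-HSC array. Within a slide, the MEP arrays had the highest ratio for miR-1224 on slide 2, at 44.4, and on slide 1 they had 88.5 and 70.3. Over the 16 arrays the log2 signals of a passing probe and the brightest probe of its miR correlated at no less than 0.93 for every miR but miR-762 and miR-1224, where the lowest Pearson correlations were 0.75 and 0.91. Over the 12 arrays without MEP and LT-HSC, the lowest were 0.61 for miR-762, 0.72 for miR-712*, 0.81 for miR-714 and 0.83 for miR-1224, and at least 0.93 for miR-483, miR-574-5p, miR-188-5p and miR-290-5p. All probes of an array share its brightness and slide, so these values are given as a description.

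**Figure D5:**
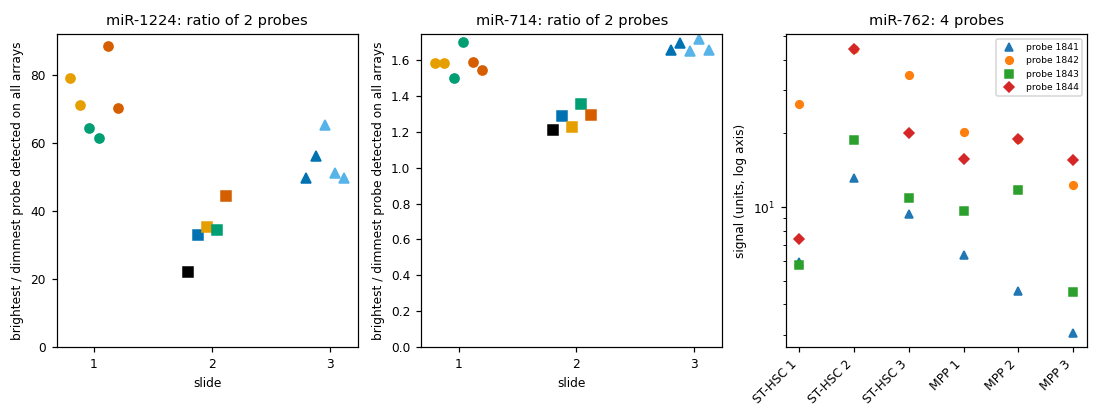
Left and middle, ratio of the brightest to the dimmest probe well above background on all arrays, for miR-1224 and miR-714 on each array, by slide, with colours for populations as in the plot of signal against total. Right, signal of the 4 probes of miR-762 on the ST-HSC and MPP arrays, on a log axis with values under 3.07 units drawn there. Ratios on slide 2 lie at 44.4 or lower for miR-1224 and 1.35 or lower for miR-714, and the probes of miR-762 change order between arrays.

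The partner arms were present for 5 hairpins, and 2 of them passed the detection filter. miR-712 read 429, 422 and 709 units in MEP, like miR-712* with its highest value on MEP 3, and 37.9 on LT-HSC, the lowest of all arrays. Its normalized difference between MEP and CMP with GMP was 2.54 log2 units. miR-574-3p read 16.7, 31.2 and 22.2 units in MEP, of which MEP 1 was not well above background, while miR-574-5p stood at 340.1 units or more there. Only 1 of the 6 CMP and GMP arrays had miR-574-3p well above background, so no difference is given. miR-483*, miR-188-3p and miR-290-3p did not pass the filter.

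The tested neighbours of miR-188-5p in the genome did not show its height in MEP, and miR-290-5p had only 1 tested neighbour. Of 14 miRs on the array that are annotated beside miR-188 or miR-290, 6 were tested. A lower mean in MEP than in CMP and GMP was found for 5 of these 6, all from the cluster of miR-188 (median difference over all miRs tested, -0.49). Of these 5, 4 were near background on all MEP arrays, so their size is not given. miR-362-3p, from the cluster of miR-188, was well above background on the 12 arrays of ST-HSC, MPP, CMP and GMP and on 0 of the 3 MEP arrays, where miR-188-5p was high. The neighbour with a higher mean was miR-292-5p, from the cluster of miR-290, which was well above background on 2 MEP arrays and 1 ST-HSC array, so no difference is given. miR-362-3p rose in ST-HSC and MPP relative to CMP and GMP by 0.56 (limma adjusted p = 0.0239). The other calls among these neighbours were those of miR-362-5p, miR-532-3p and miR-292-5p, each near background on all CMP arrays. One call of miR-362-5p did not involve CMP, a fall in ST-HSC relative to MPP by 0.81 (limma adjusted p = 0.0319). Its signal was well above background on 3 MPP arrays but on only 1 ST-HSC array.

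Most other miRs with numbers close to these had a higher mean in MEP. Of the 41 miRs named from miR-680 to miR-721 that are not among the 9, 18 were tested, and 17 of these 18 were higher in MEP than in CMP and GMP, with a median of 2.24. Over all miRs tested the median was -0.49. On CMP and GMP arrays miR-691 and miR-696 were never well above background, and miR-681, miR-685, miR-710, miR-711, miR-715 and miR-718 were on few. The median of 2.24 thus rests partly on values near background. None of the 18 passed between ST-HSC and MPP (limma, 4.64% over all) or between CMP and GMP (limma, 7.59% over all), and 7 of the 18 rose in ST-HSC and MPP relative to CMP and GMP, where 23.2% of all miRs tested did. Their median slope on the total was 0.64 against 0.92 over all, and 9 of the 18 slopes passed, against 80.2% of all. The largest called differences between ST-HSC with MPP and CMP with GMP were 2.73 for miR-689 (limma adjusted p = 0.000874), 2.26 for miR-685 (limma adjusted p = 0.000712), 1.47 for miR-697 (limma adjusted p = 0.0259) and 1.39 for miR-710 (limma adjusted p = 0.0145). Of the 7 that rose, miR-685, miR-710 and miR-711 were each well above background on 1 of the 6 CMP and GMP arrays. On these arrays miR-691 and miR-696, also among the 7, never were. The count of 7 thus rests partly on values near background. Of the 28 other MEP miRs that the study lists, 27 were tested and 26 were higher in MEP, at a median of 2.02, but the study chose that list on these arrays. Of the 9 miRs, miR-188-5p is not among the MEP miRs of the study. By limma 0 of these 27 passed between ST-HSC and MPP, and 1 passed between CMP and GMP, miR-18a, which fell in CMP by 0.59 (limma adjusted p = 0.0466). Between ST-HSC with MPP and CMP with GMP, 5 of these 27 rose and 8 fell, together about the share called among all miRs tested, 48.1%. The largest of these were miR-7a, which fell by 2.12 (limma adjusted p = 1.9e-05), miR-805, which fell by 1.42 (limma adjusted p = 0.00281), miR-710, given above, and miR-711, which rose by 1.38 (limma adjusted p = 0.0131) and was well above background on 1 of the 6 CMP and GMP arrays.

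The 9 miRs varied together over the 16 arrays. Over the 36 pairs the median Pearson correlation of normalized levels was 0.80, from 0.63 to 0.96, and over all pairs of miRs tested it was 0.05. The rule chose the 9 for height in MEP and on LT-HSC, which are among the 16 arrays, so nothing is read from the 0.80. Over the 12 other arrays the median was 0.37, from -0.35 to 0.85, against -0.00357 for all pairs. The lowest value, -0.35, was that of miR-762 with miR-682. Since miR-682 was near background on all 12, its pairs, which enter this median and range, describe background. The other miRs most like them over the 16 arrays, by mean correlation with the 9, were miR-705 at 0.88, miR-370 at 0.87, miR-721 at 0.86, miR-486 at 0.85 and miR-134 at 0.85. Of these, miR-486 is an erythroid miR, and miR-370 and miR-134 come from the imprinted Dlk1-Dio3 miR cluster. The arrays share slides and the normalization, so these correlations describe the 16 arrays and were given no p.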

How the data were processed

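The authors deposited Agilent Feature Extraction output for 16 arrays, in which the intensity of a spot is background-subtracted but not normalized between arrays, and a table of log2 values that they quantile normalized with limma. Per the file headers, slide 1 used Feature Extraction 9.5.3.1 and slides 2 and 3 used 10.2.1.3, on another scanner. Other columns used were the deposited spot calls. Slides were read from the array names. The 9 miRs and all lists were chosen with earlier results of these data known.

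Control and outlier spots were left out. Spots of a probe were averaged and quantile normalized. Values under 3.07 units (log2 1.62) were set to it. This is the 95th percentile of an array's negative controls, taken at the median array. A probe passed with at least 0.5 of its spots called well above background on 3 arrays or more (493 probes, 237 miRs), and the brightest stood for its miR. limma's lmFit and eBayes fitted a mean per population over the 16 arrays (limma 3.58.1, R 4.3.3; 10 residual and 3.1 prior degrees of freedom), two-sided, with Benjamini-Hochberg adjustment over 237 miRs and a threshold of 0.05. LT-HSC has 1 array and was assumed to vary like the rest. Slopes on the total used 12 arrays without normalization. The fits were tested on simulated data. Nothing says whether samples of a population came from separate cohorts, so p-values measure the spread between arrays, whose number limits the precision.

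Named miRs were the 9, their partner arms, the 5 others most correlated with them, and up to 4 per list by the largest called difference. Same-numbered CMP and GMP samples, which share a slide, deviated together (correlation 0.48, 0.47 and 0.63), although only numbers 1 and 2 stand in the labels. Those of ST-HSC and MPP did not (-0.04, 0.12 and 0.01). Alternatives covered scaling, background correction, floor, filter, probe summary, slide and replicate blocks, the deposited values, an intensity trend and each array left out. Normalization over the 12 arrays alone and a total over spots were chosen after seeing the data.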

Additional observations from a re-analysis of the deposited data

How the results depend on the processing

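Of the 9 miRs, the number that passed between ST-HSC and MPP (1) was 0 without normalization between arrays, with only probes well above background on all 16 arrays and with the mean of the passing probes, 2 with slide as a block, and 0 to 2 with each array left out. Between CMP and GMP (0) it was 1 with a floor 0.5 times as high, without a detection filter, with the mean of the passing probes, with slide as a block and over the 12 arrays alone (chosen after seeing the data), and 0 to 1 with each array left out, each time miR-682, whose values there are near background, so these counts say nothing of expression. Between ST-HSC with MPP and CMP with GMP (0) it was 1 with scaling to the 75th percentile of the probes detected on every array, where miR-188-5p passed, 2 with slide as a block, and 0 to 3 with each array left out.

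Slopes on the total passed for 6 miRs, and for 0 with slide as a further term, 3 with the replicate block, 3 without a detection filter, and 2 to 7 with each array left out. Populations given the total passed for 2, and for 1 with the replicate block, 0 without a detection filter, and 1 to 4 with each array left out. The replicate block changed no call among the 9 in the 3 comparisons of populations.

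The median difference of MEP from CMP and GMP (2.85) was 3.13 and 2.24 with scaling to the 75th percentile of the probes detected on every array and of all probes, 2.18 without normalization, 2.55 as a share of the total, 1.65 after normexp, 2.22 in the deposited values, and 2.38 to 2.90 with each array left out. That of LT-HSC from ST-HSC and MPP (1.36) was 1.83 and 0.62 with these percentiles, reversed to -0.69 without normalization, 0.55 after normexp, 0.75 in the deposited values, and 1.26 to 1.44 with each array left out. The causes were not tested. Counts of miRs whose probes agreed in sign did not change over all probes. Signal near background limits miR-682, and on slide 1 also miR-290-5p, miR-712* and miR-762.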
